A study of Macaca mulatta with 24 samples.

Results

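The RNA of receptors, a ligand and a transcription factor of T-cell activation and restraint was followed in rhesus macaque whole blood after total body irradiation. The set comprised the inhibitory receptors CTLA4, PDCD1, HAVCR2, TIGIT and LAG3, the costimulatory receptor ICOS, CD40LG, the interleukin-2 receptor chains IL2RA and IL2RB, and FOXP3. Members were taken as every non-control array probe that the scanner output names for one of these 10 genes. This gave 18 probes for 9 genes, out of 43603 probes on the array, and all 18 were among the 27138 probes tested. No probe carried the name LAG3. A probe was tested when its signal was well above background, the scanner software's own call, on at least 4 of the 24 arrays.

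RNA was isolated from whole blood, depleted of globin transcripts and hybridized to 24 one-colour (Cy3) rhesus arrays. The groups were pre-irradiation (7 arrays, dose 0 Gy) and day 3 (4 arrays), day 5 (6 arrays) and day 7 (7 arrays) after a dose of 4 Gy to the whole body. The animals were adult rhesus macaques of Chinese origin, with no genetic modification named, and no array of an unirradiated animal followed over the same days was analysed here, so time and irradiation cannot be told apart. The labels name X-rays and put the first sample at day 0, the study's methods name 60Co γ-rays and a sample taken before irradiation. Replicate numbers 1 to 4 are labelled male and 5 to 7 female. Arrays with the same number were treated as 1 animal.

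T cells need a second signal beside the antigen receptor. CD28 and ICOS deliver it, whereas CTLA4, PDCD1 (PD-1), LAG3, HAVCR2 (TIM-3) and TIGIT dampen the response and are known as checkpoint receptors. Activated T cells display CD40LG, which engages CD40 on B cells and dendritic cells, and IL2RA (CD25), which raises the affinity of the interleukin-2 receptor formed with IL2RB. Regulatory T cells are defined by FOXP3 and constantly carry IL2RA and CTLA4.

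What the array can say about a receptor depends on where its probe lies, so 5 probes in coding sequence are shown first: both PDCD1 probes, which disagree, 1 of the 3 probes each of IL2RA and CD40LG, and the single probe of FOXP3. Coordinates are those of build rheMac2 as the scanner output gives them, and the letters are the 60-base probes as deposited, 5′ to 3′. Both PDCD1 probes lie on the minus strand of chromosome 12, the first at chr12:105777708-105777767 and the second at chr12:105777960-105778284, where 60 bases stretch over 325 bases of genome because the probe bridges an intron. Capitals in the first mark the codons that match an immunoreceptor tyrosine-based inhibitory motif, the docking site through which inhibitory receptors signal. The IL2RA probe shown (chr9:6300664-6301936, minus strand) also bridges an intron, over 1273 bases. The FOXP3 probe lies at chrX:47103054-47103113 on the minus strand, and CD40LG probe 3 at chrX:134727311-134727370 on the plus strand.
PDCD1 probe 1: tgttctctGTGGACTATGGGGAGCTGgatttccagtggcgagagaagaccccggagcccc
PDCD1 probe 2: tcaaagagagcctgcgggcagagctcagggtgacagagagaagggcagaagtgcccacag
IL2RA probe 2: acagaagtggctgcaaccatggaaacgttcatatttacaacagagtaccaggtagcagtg
FOXP3: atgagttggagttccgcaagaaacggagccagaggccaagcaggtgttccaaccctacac
CD40LG probe 3: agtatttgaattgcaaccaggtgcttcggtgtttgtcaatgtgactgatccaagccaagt

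Probes of a gene are numbered from the brightest down. The 4 CTLA4 probes lie within 249 bases of each other (chr12:67742286-67742534) and some overlap, so they are not independent readings. TIGIT was read at chr2:34313220-34313279 and ICOS at chr12:67832108-67832167, both on the plus strand, and HAVCR2 at chr6:153452643-153452702 on the minus strand. Of IL2RB probe 1 the scanner output places 28 of its 60 bases on the genome. HAVCR2 was well above background on 5 of 24 arrays and on none before irradiation or at day 3. FOXP3 was well above background on 10 arrays, PDCD1 probe 1 on 10, PDCD1 probe 2 on 6 and CTLA4 probe 4 on 7, and none of the pre-irradiation arrays detected FOXP3 or PDCD1 probe 1. HAVCR2, FOXP3 and PDCD1 probe 1 therefore passed the filter for testing through arrays taken after irradiation alone, the groups in which they are high, and their values against pre-irradiation or day 3 carry that limit. IL2RB probe 2 was well above background on 2 of 7 pre-irradiation arrays and on 4 of 4, 5 of 6 and 6 of 7 arrays at days 3, 5 and 7, and IL2RB probe 1 on 5 of 7 and on all later ones. Signals of TIGIT, ICOS, all CD40LG and IL2RA probes and CTLA4 probe 1 were well above background on all 24 arrays.

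On pre-irradiation arrays 49.6 to 53.1% of probes were detected as well above background (median 52.5%) and on later arrays 48.3 to 61.2%, with medians of 56.4, 57.1 and 57.6% at days 3, 5 and 7. All 4 day 3 arrays, at 53.9% or more, lay above every pre-irradiation array. Its part in the detection of HAVCR2, FOXP3 and PDCD1 probe 1 after irradiation was not tested. The precision is limited by how many arrays there are. The first of 2 scan sessions took 6 arrays each of pre-irradiation and day 7. The second took all arrays of days 3 and 5 together with the pre-irradiation and day 7 arrays of animal 5. Day 3 and day 5 are therefore compared with pre-irradiation mostly across sessions. T-cell, B-cell, platelet and erythroid marker genes of whole blood were all detected. All 5 B-cell markers tested were lower on every day (median −3.53, −3.92 and −3.67 on the log2 scale at days 3, 5 and 7), the 7 erythroid markers were lower on every day, and the 7 platelet markers were higher at day 3 (median 3.06). Of the NK-cell markers, 0 of 8 were called by limma on any day, with 0, 0 and 1 at an unadjusted p under 0.05. The T-cell core, the mean of CD3D, CD3G, CD5 and CD6, was 11.77 ± 0.20 (SD, n = 7) before irradiation and 11.49 ± 0.65 (n = 4) at day 3. Its day 5 level was 11.70 ± 0.24 (n = 6) and its day 7 level 12.06 ± 0.29 (n = 7). Of these 4 genes 0 were called by limma on any day, with 0, 1 and 1 at an unadjusted p under 0.05, CD6 each time. CD6, the dimmest of them (mean 7.23 before irradiation), moved by 0.33 and 0.48 at days 3 and 5. CD3D moved by −0.50 and −0.40, CD3G by −0.49 and −0.31, and CD5 by −0.44 and −0.04. In these bulk samples fewer T cells and less RNA per T cell cannot be told apart. The study's blood counts showed a steep early fall of lymphocytes, with the low point reached within 7 days. Array signals brought to a common median do not measure cells per volume of blood.

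Few of the 18 probes passed the study's own threshold, an adjusted p under 0.005 in limma. At day 3, ICOS was lower and no other probe was called (1 of 18, against 13.5% of all probes tested and 8.02% called lower), and 8 of 18 had an unadjusted p under 0.05 against 46.5% of all probes. At day 5 the count was 0 of 18 (16.7% of all probes), with 10 at an unadjusted p under 0.05 against 45.5% of all probes. At day 7, PDCD1 probe 1 was higher and no other probe was called (1 of 18, against 10.9% and 3.60% called higher), and 9 had an unadjusted p under 0.05 against 39.5% of all probes. The 18 probes had a median change of −0.34, 0.57 and 0.76 at days 3, 5 and 7 on the log2 scale. The median over all probes, 0.02 on each day, is held near 0 by the normalization and is no comparison for them. Overlapping CTLA4 probes count several times in the median of the 18. It also includes HAVCR2, FOXP3 and PDCD1 probe 1, which passed the filter through arrays after irradiation alone. Between days 3 and 7, ICOS was called (1 of 18, against 1.26% of all probes), and CD40LG probe 1 and FOXP3 joined it at an adjusted p under 0.05 (3 of 18, against 16%), all higher at day 7, FOXP3 with no detected array at day 3. By limma 0 of 18 differed between days 3 and 5 (0.0184% of all probes) and 0 between days 5 and 7 (0.00368%). At an unadjusted p under 0.05 these counts were 2 (10% of all probes) and 3 (20.8%). With an adjusted p under 0.05 instead, 4 probes were called at day 3 (35.7% of all probes), 6 at day 5 (35.5%) and 8 at day 7 (27.6%). Those at day 3 were ICOS, CD40LG probe 1 and CTLA4 probe 3, lower, and IL2RB probe 2, higher. All 6 at day 5 and all 8 at day 7 were higher. They were PDCD1 probe 1, both IL2RB probes, IL2RA probes 1 and 2 and FOXP3 on both days, with HAVCR2 and IL2RA probe 3 added at day 7. With animal as a block in limma all 8 at day 7 still passed 0.05. At day 5 IL2RA probe 1 did not (adjusted p 0.0732), and ICOS (0.0162), PDCD1 probe 2 (0.00943) and CD40LG probe 1 (0.0438) passed as lower. At day 3 CD40LG probe 1 (0.0523) and IL2RB probe 2 (0.0588) no longer passed.

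**Figure D1:**
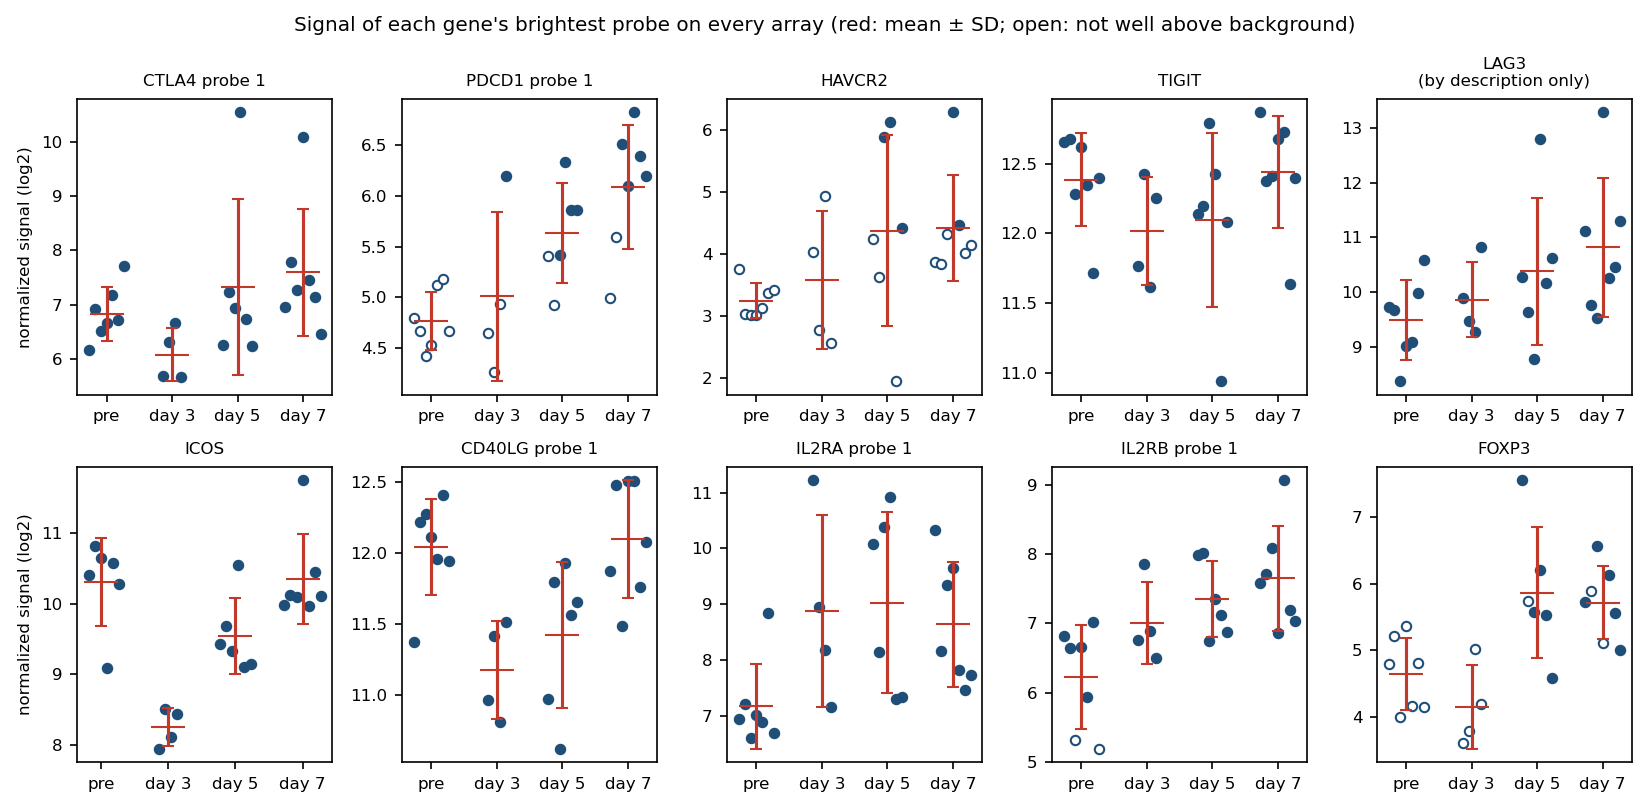
Normalized log2 signal of the brightest probe of each gene on every array, by group (7 pre-irradiation, 4 day 3, 6 day 5 and 7 day 7 arrays), with the LAG3-described probe. Points are arrays in order of replicate number, open points are not well above background, and red lines give mean ± SD. ICOS lies between 7.95 and 8.51 on the day 3 arrays, below every pre-irradiation array, and HAVCR2, PDCD1 and FOXP3 have no filled point before irradiation.

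**Figure D2:**
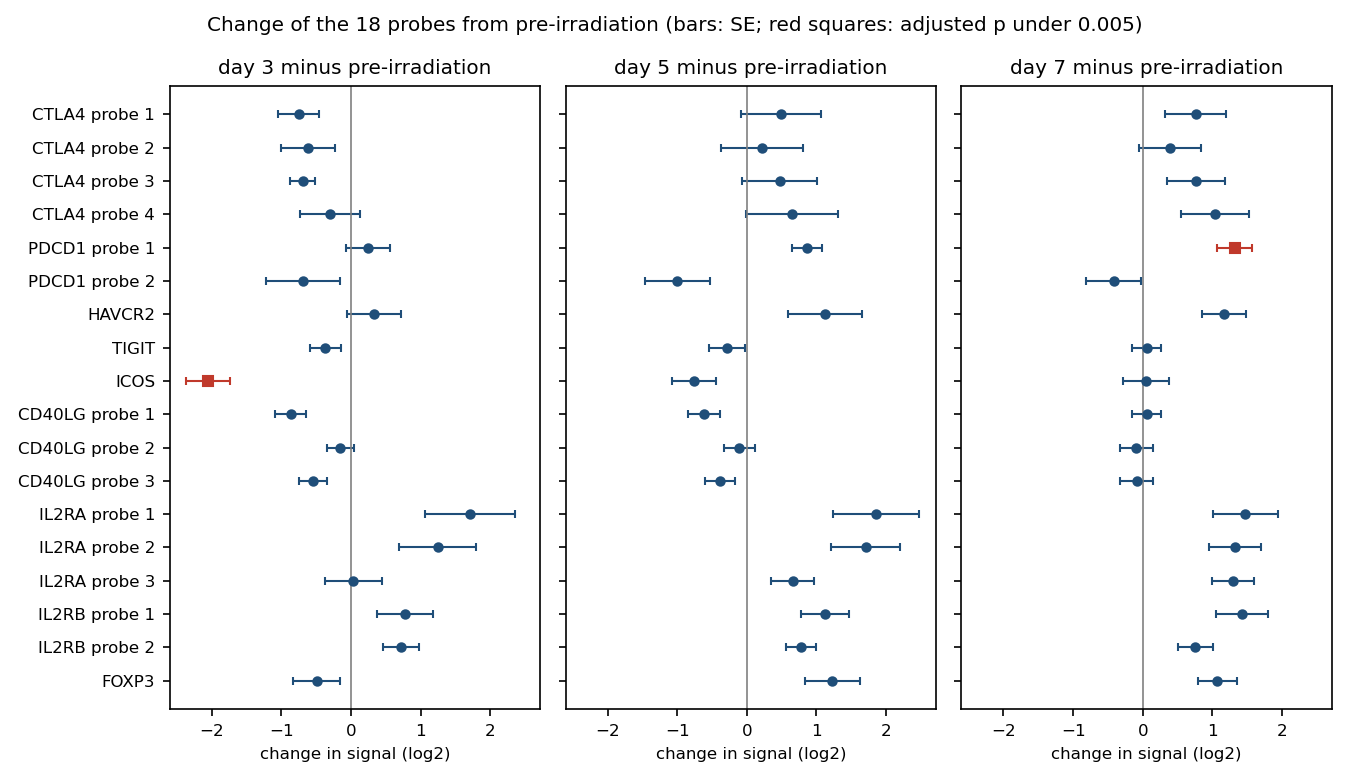
Log2 change of each of the 18 probes from pre-irradiation at days 3, 5 and 7 (limma estimates, bars are SE), with probes at an adjusted p under 0.005 as red squares. ICOS at day 3 (−2.05) and PDCD1 probe 1 at day 7 (1.32) are the squares, HAVCR2, FOXP3 and PDCD1 probe 1 were not detected before irradiation, and the IL2RA, IL2RB and FOXP3 probes lie to the right of 0 at days 5 and 7.

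ICOS, the inducible costimulator of T cells, fell at day 3, and its day 7 signals overlapped those before irradiation. Before irradiation its normalized log2 signal ran from 9.09 through a median of 10.49 to 10.82 on 6 arrays (1 spot was marked non-uniform and left out), and at day 3 it was 7.95, 8.51, 8.12 and 8.44 in animals 1, 2, 4 and 7. All 4 day 3 arrays lay below all pre-irradiation arrays, a pattern found for 12.4% of all probes. The fall was −2.05 ± 0.31 (log2 ± SE), or 4.14-fold, with an adjusted p of 0.000971 by limma. Each of the 3 animals with both samples was lower at day 3, by −1.84 to −2.53. Blocking on animal gave −2.09 and an adjusted p of 0.0069, which no longer met the threshold of 0.005.

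Signals of ICOS ran from 9.11 through 9.38 to 10.55 at day 5 and from 9.98 through 10.11 to 11.75 at day 7, so the medians ran upward from day 3 through day 5 and day 7 to pre-irradiation. Day 7 exceeded day 3 by 2.10 ± 0.32 (adjusted p 0.00375, or 0.0153 with the animal block), and all 7 day 7 arrays lay above all 4 at day 3, as did 5.87% of all probes. Day 5 exceeded day 3 by 1.29 ± 0.28 (adjusted p 0.104), and the difference of day 7 from pre-irradiation was smaller than its error (0.05 ± 0.33, adjusted p 0.925). Against pre-irradiation, day 5 stood at −0.76 ± 0.31 (adjusted p 0.0745, or −0.98 and 0.0162 with the animal block). All 5 animals with both samples were lower at day 5, by −0.10 to −1.49. The call that day 7 exceeded day 3 was lost whichever animal was left out (0 of 18 probes each time), when 0 to 0.908% of all probes were called. The difference itself was 2.06 without animal 1 (adjusted p 0.0327) and 1.82 without animal 4 (0.00712). In the same way the day 3 call was lost without animal 2, 4 or 7 (adjusted p 0.00546, 0.00984 and 0.00563), with changes of −1.94 to −2.12.

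The scan session moved with the ICOS result. The lowest pre-irradiation value, 9.09, is the single pre-irradiation array of session 2, and the 5 from session 1 ran from 10.28 to 10.82. Within session 2 the day 3 change was −0.84 ± 0.31 with session as a block (adjusted p 0.16), which rests on that 1 array, and with slide as a block it was −0.81 (adjusted p 0.323). The part of the scan session in the fall was not tested. Against the T-cell core in each array, ICOS stood at −1.73 ± 0.37 at day 3 (adjusted p 0.00931, not called).

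CD40LG, the T-cell ligand that licenses B cells through CD40, had a lower mean at day 3 in its brightest probe, which missed the threshold. Signals ran from 11.37 through 12.11 to 12.40 before irradiation and were 10.96, 11.41, 10.81 and 11.51 at day 3 in animals 1, 2, 4 and 7. The groups overlapped, with 2 of 4 day 3 arrays below all pre-irradiation arrays. The change was −0.87 ± 0.22 at day 3 (adjusted p 0.0102), −0.62 ± 0.23 at day 5 (0.0523) and 0.06 ± 0.21 at day 7 (0.862). All 4 animals at day 3 and all 6 at day 5 were below their own pre-irradiation value. Probe 2 moved by −0.15 and probe 3, shown above, by −0.54 at day 3, and neither was called.

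CTLA4, which outcompetes CD28 for CD80 and CD86, had a low signal in every animal but 1 at days 5 and 7. Before irradiation probe 1 ran from 6.16 through 6.71 to 7.71, and at day 3 it was 5.69, 6.30, 6.66 and 5.67 in animals 1, 2, 4 and 7. At day 5 the values ran from 6.24 through 6.84 to 10.54 and at day 7 from 6.46 through 7.27 to 10.08. The highest value on both days was animal 4, and the next highest were 7.23 and 7.78.

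Animal 4 exceeded its own pre-irradiation signal by 3.88 at day 5 (14.7-fold) and 3.42 at day 7 in CTLA4 probe 1, after 6.66 on both its pre-irradiation and its day 3 array. The other probes gave a like picture, with differences in animal 4 of 3.13 and 3.20 in probes 2 and 3 at day 5. On probe 4 this animal was not well above background before irradiation or at day 3 and read 8.35 at day 5 and 7.76 at day 7. The group change in probe 1 was not called on any day: −0.75 ± 0.29 at day 3 (adjusted p 0.0631), 0.49 ± 0.58 at day 5 (0.542) and 0.76 ± 0.44 at day 7 (0.216). Without animal 4 the day 5 change turned to −0.18 and the day 7 change was 0.32. CTLA4 probe 3 had all 4 day 3 arrays below all pre-irradiation arrays (−0.69 ± 0.18, adjusted p 0.0124), a pattern found for 12.4% of all probes. Only 2 of those 4 arrays were well above background.

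**Figure D3:**
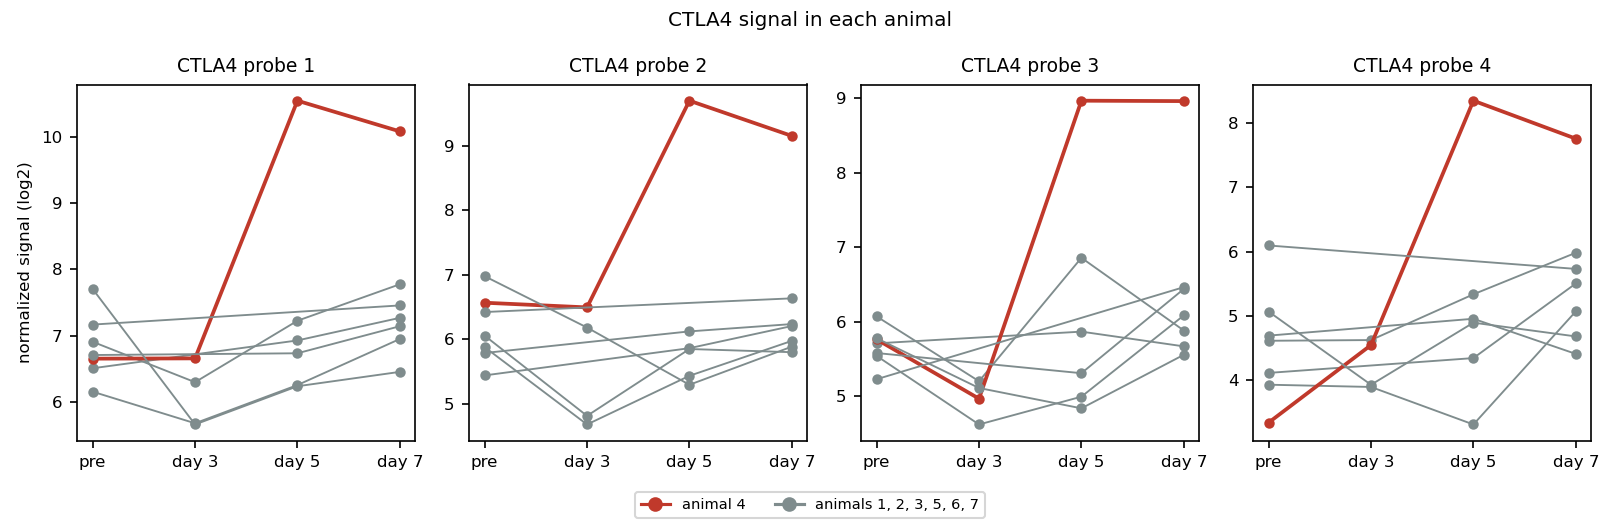
Normalized log2 signal of the 4 CTLA4 probes in each animal from pre-irradiation to day 7, with animal 4 in red and the other 6 in grey; lines join the arrays of 1 animal. In probe 1 animal 4 reaches 10.54 at day 5 and 10.08 at day 7, above the other animals at 6.24 to 7.78, and it stands highest in all 4 panels on both days.

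Other receptors also had their highest value in animal 4. ICOS reached 11.75 in it at day 7, against 10.46 in the next animal. HAVCR2 reached 6.13 at day 5 and 6.28 at day 7. The 1 probe that is LAG3 by its description, but not by its name, and so lies outside the 18, is at chr11:6957575-6957634. LAG3 binds MHC class II and restrains T cells. On that probe signals ran from 8.37 through 9.66 to 10.58 before irradiation and from 9.53 through 10.46 to 13.30 at day 7, where animal 4 was highest. That animal had 9.02 before irradiation, 12.80 at day 5 and 13.30 at day 7. The group change there was 1.33 ± 0.50 (adjusted p 0.0603) at day 7 and 0.84 without animal 4.

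PDCD1 was read by a pair of dim probes that differed in direction. On probe 1, which covers the inhibitory motif, signals ran from 4.42 through 4.66 to 5.18 before irradiation, none of them well above background, and from 4.99 through 6.20 to 6.83 at day 7, where 5 of 7 were. By day 7 all arrays but 1 of the 7 exceeded the highest pre-irradiation signal, and all 7 animals were above their own pre-irradiation value. The mean rose at least 2.46-fold (measured 1.32 ± 0.25 on the log2 scale, limma adjusted p 0.00139, or 0.00286 with the animal block). That bound leaves out the error between arrays and lies close to the measured fold of 2.5. The probe was selected for testing by the same arrays, and with no filter on dim probes its adjusted p was 0.00255. The day 5 mean was at least 1.8-fold the pre-irradiation one (measured 0.87 ± 0.22, adjusted p 0.00712, not called), and 5 of 6 arrays exceeded every pre-irradiation array. At day 3 it was detected on 1 of 4 arrays (adjusted p 0.576).

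PDCD1 probe 2 had a lower mean than before irradiation, by −0.69 ± 0.53, −1.0 ± 0.46 and −0.42 ± 0.40 on the log2 scale at days 3, 5 and 7. It was not called on any day (limma adjusted p 0.333, 0.109 and 0.462). The means gave a bound of at least 1.28-fold at day 3, which leaves out the error between arrays. At day 5 all 6 animals were below their own pre-irradiation value, by −0.045 to −2.48, and with the animal block the change was −1.27 (adjusted p 0.00943, not called). It was well above background on 4 of 7 arrays before irradiation, on 0 of 4 at day 3, on 1 of 6 at day 5 and on 1 of 7 at day 7, so it passed the filter for testing mostly through the group in which it is high. The rise of probe 1 is therefore not shown by the other probe of the gene. Without animal 3, 4 or 7 the day 7 adjusted p of probe 1 was 0.00798, 0.00603 or 0.00798, and with normexp background correction the change was 0.28 (adjusted p 0.858).

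HAVCR2, the TIM-3 receptor, was too dim to measure before irradiation and at day 3. Its signals ran from 3.01 through 3.14 to 3.75 before irradiation and from 3.84 through 4.14 to 6.28 at day 7. All 7 day 7 arrays lay above all pre-irradiation arrays, as did 2.57% of all probes, but 2 were well above background. The day 7 mean was at least 1.71-fold the pre-irradiation one (measured 1.17 ± 0.32, adjusted p 0.0135, or 0.0223 with no filter on dim probes, not called). In that bound 5 of the 7 day 7 arrays were themselves not well above background. TIGIT, which competes for CD155 (PVR), was bright on every array. It ran from 11.72 through 12.39 to 12.68 before irradiation and 11.64 through 12.41 to 12.87 at day 7, and its changes of −0.37 ± 0.23, −0.29 ± 0.26 and 0.06 ± 0.20 at days 3, 5 and 7 were not called (adjusted p 0.216, 0.413 and 0.864).

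IL2RA, the interleukin-2 receptor α chain, had its highest signals after irradiation in the animals labelled male. Probe 1 ran from 6.60 through 6.94 to 8.85 before irradiation and was 11.22, 8.95, 8.17 and 7.16 at day 3 in animals 1, 2, 4 and 7. At day 5 it ran from 7.29 through 9.11 to 10.92 and at day 7 from 7.45 through 8.15 to 10.34. The group changes were 1.71 ± 0.65, 1.86 ± 0.62 and 1.47 ± 0.47 at days 3, 5 and 7, with adjusted p of 0.0588, 0.0305 and 0.0294. Probe 2 gave 1.24 ± 0.56, 1.70 ± 0.50 and 1.32 ± 0.37 (adjusted p 0.100, 0.0165 and 0.0156) and probe 3 gave 0.03 ± 0.41, 0.66 ± 0.30 and 1.30 ± 0.30 (0.958, 0.108 and 0.00577). None passed 0.005, and the highest pre-irradiation value of probe 1, 8.85 in animal 6, was not shared by probes 2 and 3 (7.21 and 7.07 there).

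The 4 males and the females separated on all 3 probes. On probe 2 at day 7 the males had 9.58, 8.60, 8.92 and 9.40 and the females 7.44, 7.37 and 7.37 (animals 5 to 7), and at day 5 the males had 9.67, 8.15, 9.91 and 10.37 and the females 7.26 and 7.21. The lowest male exceeded the highest female on all 3 probes at both days, and the sexes overlapped before irradiation. The difference between the male and the female change on probe 2 was 2.01 ± 0.41 at day 7 and 2.57 ± 0.67 at day 5. Tested as an interaction of sex and day over all probes by limma, after the pattern had been seen, these had unadjusted p of 0.000312 and 0.00236 and adjusted p of 0.302 and 1.0. No probe of the array passed an adjusted p of 0.05 in that test, and 2359 of 27134 probes at day 7 and 790 of 27129 at day 5 had an unadjusted p under 0.05. At day 5 all 4 males were on 1 slide and both females on another, so sex and slide cannot be told apart there. The model held no term for slide and none for animal, so it did not use the pairing. At day 7 slides 1 and 3 each held a male and a female, with 9.58 against 7.37 on the first and 9.40 against 7.37 on the other. Sex cannot be told apart from other differences between these few animals.

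**Figure D4:**
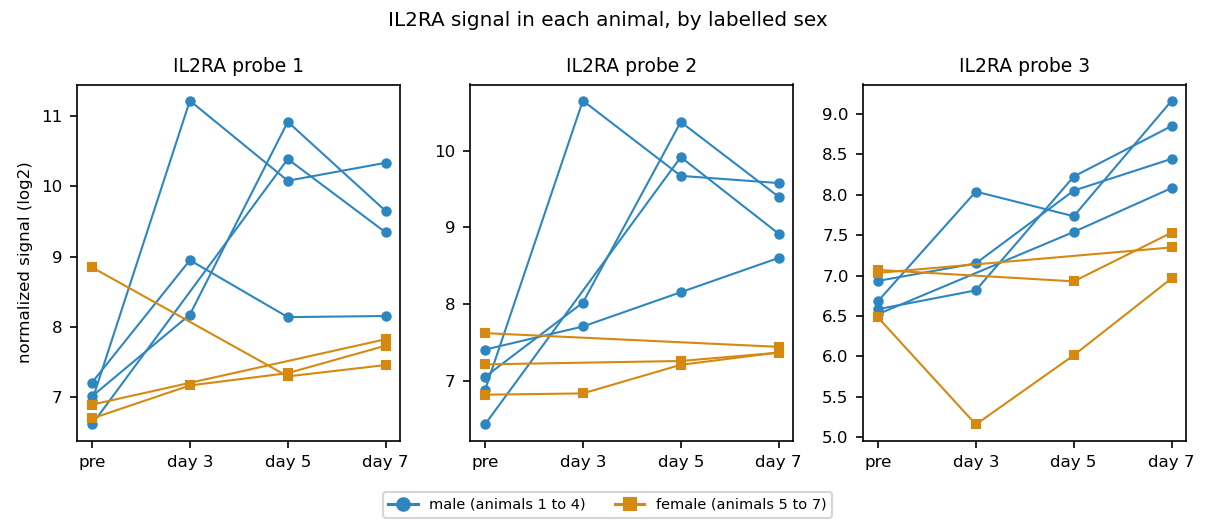
Normalized log2 signal of the 3 IL2RA probes in each animal from pre-irradiation to day 7, with males (animals 1 to 4) as blue circles and females (animals 5 to 7) as orange squares; lines join the arrays of 1 animal. At day 7 on probe 2 the males lie between 8.60 and 9.58 and the females between 7.37 and 7.44.

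IL2RB, the β chain shared with the interleukin-15 receptor and abundant on NK cells as well as T cells, had higher means after irradiation on both probes, none of which met the threshold. Probe 1 ran from 5.18 through 6.64 to 7.02 before irradiation, was 6.76, 7.86, 6.88 and 6.50 at day 3, and ran from 6.75 through 7.24 to 8.01 at day 5 and from 6.86 through 7.58 to 9.07 at day 7. The changes were 0.78 ± 0.40, 1.13 ± 0.34 and 1.43 ± 0.37 (adjusted p 0.146, 0.0199 and 0.0108). Probe 2 changed by less, 0.72, 0.78 and 0.75 (adjusted p 0.0491, 0.0124 and 0.0384), and every array of day 3 and of day 5 lay above all pre-irradiation arrays, as did 8.68 and 5.66% of all probes, against a baseline detected on 2 of 7 arrays. All 7 animals were above their own pre-irradiation value at day 7 on both probes. IL2RG, the third chain of the receptor, moved by −0.10 ± 0.15 at day 7 (adjusted p 0.673).

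FOXP3, the transcription factor that defines regulatory T cells, was not detected before irradiation or at day 3 and was detected on most arrays afterwards. Signals ran from 4.00 through 4.79 to 5.36 before irradiation and were 3.60, 3.78, 5.01 and 4.19 at day 3, and no array of either group was well above background. At day 5 they ran from 4.58 through 5.66 to 7.56, with 5 of 6 well above background, and at day 7 from 5.00 through 5.72 to 6.56, with 5 of 7. The mean was at least 2.09-fold the pre-irradiation one at day 5 (measured 1.22 ± 0.40, adjusted p 0.0268, not called). At day 7 it was at least 1.88-fold (measured 1.07 ± 0.28, adjusted p 0.0108, not called). On these days 6 of 6 and 6 of 7 animals were above their own pre-irradiation value. With no filter on dim probes the adjusted p were 0.0398 and 0.0187.

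Taking each array relative to its T-cell core addressed whether the receptors moved with the mean of CD3D, CD3G, CD5 and CD6. Within that mean CD6 went against the other genes at days 3 and 5. On this scale 0 of 18 probes were called by limma at days 3, 5 and 7 (2.34, 11.4 and 10.3% of all probes), with 4, 9 and 7 at an unadjusted p under 0.05 (33.4, 40.4 and 37.1% of all probes). Median changes were −0.06, 0.64 and 0.47. With an adjusted p under 0.05, ICOS was lower at day 3 (15.2% of all probes called), 6 probes were higher at day 5 (28.9% of all probes) and 1, PDCD1 probe 1, was higher at day 7 (24.6%). At day 5 IL2RB probe 1 stood at 1.20 ± 0.37 relative to the core (adjusted p 0.0266) and IL2RA probe 2 at 1.77 ± 0.52 (0.0184). PDCD1 probe 1 and FOXP3 were also among the 6, and neither was detected before irradiation.

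Of 14 ligands and partner chains tested, 1 was higher (NECTIN2) and 1 lower (CD40) at day 3, 3 higher and 1 lower at day 5, and 1 lower at day 7. Of all probes, 5.43% were called higher and 8.02% lower at day 3, 7.16% and 9.58% at day 5, and 3.60% and 7.27% at day 7. CD274 (PD-L1) rose by 2.71 ± 0.49 at day 5 (6.54-fold, adjusted p 0.000856) and PDCD1LG2 (PD-L2) by 2.50 ± 0.56 (5.66-fold, 0.00355). Monocyte and dendritic-cell markers, cells that can carry both ligands, had a median change of 0.46 at day 5, with 5 of 9 at an unadjusted p under 0.05, and their part in these rises was not tested. NECTIN2, a ligand of TIGIT and CD226, rose by 1.27 ± 0.28 at day 3 (adjusted p 0.00498, or 0.0114 with the animal block) and by 0.89 ± 0.20 at day 5. At day 7, when PDCD1 probe 1 was highest, CD274 stood at 0.92 ± 0.45 (adjusted p 0.144) and PDCD1LG2 at 1.07 ± 0.56 (0.172). CD40, the receptor of CD40LG and a gene of B cells, fell by 2.15, 2.71 and 3.14 at days 3, 5 and 7, beside the fall of the B-cell markers, whose part in it was not tested.

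Among 16 other costimulatory and inhibitory receptors, 4 were higher and 1 lower at day 3 (5.43 and 8.02% of all probes), 3 higher and 1 lower at day 5 (7.16 and 9.58%), and 0 of 16 were called by limma at day 7 (3 at an unadjusted p under 0.05, against 39.5% of all probes). BTLA, an inhibitory receptor of B and T cells, fell by 2.33 ± 0.31 at day 3 (adjusted p 0.000374) and by 1.52 ± 0.31 at day 5 (0.00202). CD101 rose by 1.84 ± 0.20 at day 3 and by 1.12 ± 0.25 at day 5, and CD226, an activating receptor that shares ligands with TIGIT, rose by 1.28 ± 0.25 at day 3. TNFRSF14, the ligand of BTLA, and VSIR (VISTA) were the other receptors that rose at both days, by 1.06 and 1.23 at day 3. Blocked by animal, BTLA and TNFRSF14 still passed at day 5 (0.00177 and 0.00157), and the other calls did not: the adjusted p of BTLA, CD101, CD226, TNFRSF14 and VSIR at day 3 was 0.00716, 0.00609, 0.0238, 0.0153 and 0.0128, and of CD101 and VSIR at day 5 0.00545 and 0.00817. Markers of other cell types moved on the same days. Platelet markers were all higher at day 3, their mean running from 10.07 to 11.41 before irradiation and from 13.23 to 14.20 at day 3. Monocyte and dendritic-cell markers had a median change of 0.67 at day 3, and 8 of 9 had an unadjusted p under 0.05 in either direction. Of 8 neutrophil markers CSF3R and MMP25 were higher at day 3 (median 0.57), with list means of 9.64 to 10.87 and 9.94 to 11.22. Their part in the changes of CD101, CD226, TNFRSF14 and VSIR, which such cells can also carry, was not tested. CD28 itself stood at −1.10 ± 0.25 at day 3 (adjusted p 0.00658), 0.02 at day 5 and 0.45 at day 7. Of 15 activation, exhaustion and regulatory factors, GATA3 was lower at day 3 (−0.72 ± 0.15), PRDM1 and BCL6 were higher at day 5 (0.89 ± 0.20 and 1.25 ± 0.25), calls lost with the animal block (adjusted p 0.0364, 0.00948 and 0.00807). IKZF4, which encodes the FOXP3 partner Eos, was higher at day 7 (1.30 ± 0.25, adjusted p 0.00147; 0.00406 with the block).

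For the members measured on all 24 arrays, the genes with the most similar signal were found by Pearson's r over arrays, among 8026 genes (8027 for ICOS). The arrays share animals, slides and groups, so these values are descriptions. CTLA4 ran closest to CBX5 (r = 0.91) and to the mitotic cyclins CCNB1 and CCNB2 (both 0.90). The 2 high arrays of animal 4 carry part of this, and without them r was 0.75, 0.62 and 0.81. ICOS ran closest to OXCT1, GNL3 and CLDND1 (each 0.93, over 23 arrays). Without the 2 arrays farthest from the median, the ICOS values were 0.90, 0.91 and 0.91. The closest genes were FAM213A for CD40LG (0.84), TLR5 for IL2RA (0.80) and COPS6 for TIGIT (0.76), with 0.76, 0.75 and 0.65 without the 2 farthest arrays of each.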

How the data were processed

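The authors scanned each array with Agilent Feature Extraction (version 10.7 in the labels, 12.0.2.2 in the file headers); the deposited processed signal is an intensity with local background subtracted. The deposited flags for detection and outlying spots, coded as 0 or 1, are the scanner's other output. The deposited series matrix holds log2 values normalized by the authors to the median array; 18497 of its rows were matched to probes, each column correlated with the scanner's log2 signal at r of at least 0.999965, its column medians ran from 7.37 to 7.70, and cells it leaves empty were not used. The study's methods name a human array, whereas the labels and file headers give a rhesus design.

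Here outlying spots were left out, the log2 processed signals of a probe were averaged, and arrays were brought to a reference array, the one of middle median signal, by adding the median difference over tested probes. Groups were compared by limma 3.58.1 in R 4.3.3, with statmod 1.5.0 for random blocks, each day in its own fit, two-sided, with Benjamini-Hochberg adjustment over all probes tested and a threshold of 0.005. Figures used Python 3.11.15 with matplotlib 3.10.9. Where a group had no array well above background, folds are bounds: the brighter group's mean against the mean, per array of the dim group, of the larger of the probe's signal and the dimmest detected probe's. Each bound is a ratio of means without sampling error, so the true change can be smaller. In simulated data with 200 of 27138 probes changed, 18, 25 and 30% of changes of 1 log2 unit and 65, 73 and 81% of changes of 2 were recovered at the sizes of days 3, 5 and 7.

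Whether a replicate number marks 1 animal was checked on deviations from group means: same-number arrays correlated at 0.134 to 0.414 (day 3), 0.171 to 0.454 (day 5) and 0.132 to 0.439 (day 7), with negative medians for different numbers. Named genes were all members, at most 3 genes of each other list with the largest called changes, the T-cell core, and the 3 most similar genes of fully detected members; CD28, IL2RG, TNFRSF14, VSIR and values below the threshold were added after seeing the data. Gene symbols of the scanner output were used, with 898 probes named through accessions. The members and lists were chosen with earlier results of these data known. CD3E has no probe by name. Not every marker gene is reported here. Alternatives were the 75th percentile and quantile normalization, normexp background correction, other detection filters, a fit of all groups, blocks for animal, slide and scan session, the series matrix, a threshold of 0.05, the wider T-cell list as denominator and leaving out each animal.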

Additional observations from a re-analysis of the deposited data

Results flagged for a closer look

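In each group of 4 to 10 arrays the highest and the lowest value of each member probe and of the LAG3-described probe were compared with the rest by Dixon's criterion. It marked an array in 11 of 76 groups, where chance marks about 1 in 20. Of the 11, 7 are animal 4 after irradiation, which lay above all others: CTLA4 probe 1 at day 5 (10.5) and day 7 (10.1), CTLA4 probe 2 at day 5 (9.70) and day 7 (9.15), CTLA4 probe 3 at day 7 (8.96), HAVCR2 at day 7 (6.28) and ICOS at day 7 (11.8). Some of the 4 CTLA4 probes overlap, and all read 1 gene, so they are not independent.

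The lowest TIGIT values at pre-irradiation (11.7) and at day 7 (11.6) both belonged to animal 6. The lowest ICOS value before irradiation, 9.09, belonged to animal 5, whose array is the only pre-irradiation array of the second scan session. The highest IL2RA probe 1 value before irradiation, 8.85, belonged to animal 6 and was not seen on IL2RA probes 2 and 3.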

How the results depend on the processing

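Of 166 recomputed counts of called member probes, 129 stayed within 1.5 times and 37 did not. The main counts were 1, 0 and 1 at days 3, 5 and 7, 1 between days 3 and 7, and 0 elsewhere. With 75th percentile normalization 1 probe was called at day 5 and 2 at day 7 (17.6 and 11% of all probes). With normexp background correction 0 were called at day 3, 0 at day 7 and 0 between days 3 and 7 (0.512, 1.16 and 0.0221% of all probes), and with no filter on dim probes 0 between days 3 and 7 (0.179%). A fit of all 4 groups called 2 at day 7 and 1 at day 3 relative to the T-cell core genes (14.3 and 5.88%), where the wider T-cell denominator also called 1 (7.69%). The authors' series matrix called 2 at day 7 (14.6%). The replicate block (arrays paired by animal), the slide block and the scan session block each called 0 at day 3 (2.77, 0 and 0.136% of all probes) and 0 between days 3 and 7 (0 of all 27132 probes each), so these counts are no result about the members. With an adjusted p under 0.05 the counts were 4, 6 and 8 at days 3, 5 and 7, 3 between days 3 and 7, and 1, 6 and 1 relative to the core. Leaving out 1 animal at a time gave 0 to 1 at day 3, 0 to 2 at day 7, 0 between days 3 and 7 and 0 to 1 at day 3 relative to the core, when 3.18 to 12.9, 6.10 to 9.49, 0 to 0.908 and 0.678 to 5.17% of all probes were called. The causes were not tested.

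Of 558 recomputed changes of the brightest probes, 522 kept direction and side of the threshold, 12 passed it anew, 11 no longer passed it and 13 changed sign, none of the latter from a called value. FOXP3 at day 3 was 0.11 with normexp and 0.44 with the slide block, PDCD1 at day 3 −0.11 and ICOS at day 5 0.45 with the scan session block, and ICOS −0.13 and CD40LG −0.024 at day 7 in scan session 1 alone. Without 1 animal at a time the values ran from −0.17 to 0.47 for PDCD1 at day 3, −0.16 to 0.69 for HAVCR2 at day 3, −0.18 to 0.85 for CTLA4 at day 5, −0.13 to 0.20 for ICOS at day 7 and −0.024 to 0.20 for CD40LG at day 7. A slide block could not be fitted for day 5 against pre-irradiation or day 7, since no slide holds both. Slide as a random block, added after seeing the data, gave ICOS −2.10 at day 3 (limma adjusted p 0.000695) and PDCD1 probe 1 an adjusted p of 0.0013 at day 7. Beside ICOS at day 3 and between days 3 and 7, the pairing by animal changed no member call at the threshold of 0.005. Calls at the alternative, looser threshold did change with the pairing at days 3 and 5, as given above. Signal over background limits PDCD1, HAVCR2 and FOXP3; at day 3 FOXP3 and HAVCR2 were detected on no array.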
